A study of Mus musculus with 2 samples.

Results

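The region chr1:73500001-79500000 of the mouse genome (build GRCm38) holds the signalling genes *Wnt6*, *Wnt10a* and *Ihh*, the Eph receptor gene *Epha4* and the transcription factor gene *Pax3*. Its contacts were taken from Hi-C, an assay in which cross-linked chromatin is cut, neighbouring fragments are ligated, and reading the ends of a ligated molecule gives 1 pair of positions in contact. The members were all pairs with both ends on chromosome 1, at least 20 kb apart, with at least 1 end in the region. There were 313581 of them among 3044443 such pairs in the wild-type library (10.3%) and 244900 among 2351466 in the *Lin28a* knockout library (10.4%). The totals refer to the part of chromosome 1 from 3 to 90.75 Mb that was held in both lists of pairs.

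One group was wild-type mouse ES cells and the other was *Lin28a* knockout ES cells, both grown on gelatin with MEF feeder cells in LIF/2i medium for 2 days. Each group had 1 list of pairs. The labels speak of replicates but do not mark them, so no test between groups was possible and each library was given its own value. They name neither the ES line nor how the knockout was made, nor whether feeder cells were removed before cross-linking. Intervals below are 95% intervals that cover counting error only and leave out differences between cultures and libraries.

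WNT6 and WNT10A are secreted Wnt ligands, and Indian hedgehog (IHH) is a secreted Hedgehog ligand. EPHA4 is a receptor tyrosine kinase for ephrins on neighbouring cells, and PAX3 is a paired-box transcription factor of the neural crest and muscle lineages. Along a chromosome, contacts are frequent inside domains and rarer across the boundaries between them, and many boundaries hold sites of CTCF, a DNA-binding protein. The *Epha4* locus is known for limb malformations in which deletions, inversions or duplications across its boundaries put regulatory DNA of *Epha4* in contact with *Wnt6*, *Ihh* or *Pax3*. No chromosome of that kind was among the groups compared here.

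Coverage of the region as a whole differed little between libraries. Of its pairs, 110610 in the wild-type and 88619 in the knockout library had both ends inside it. Of the 240 bins of 25 kb in the region, 238 entered the maps. The 2 left out, chr1:75075001-75100000 and chr1:75100001-75125000, lie inside *Nhej1*, a DNA repair gene next to *Ihh*, and hold 25000 and 21556 bases that are unknown in the reference. Pairs between chromosomes, which a gain or loss of sequence would shift, gave a knockout over wild-type ratio of 0.980 (0.973 to 0.987) for the region. In its 12 windows of 500 kb that ratio ran from 0.882 to 1.03, with the lowest value in the window from 78.5 to 79 Mb. The interval of that window, 0.856 to 0.908, left out 1, and the window holds a boundary given below, at 78.75 Mb. The *Lin28a* gene itself, on another chromosome, was met by 12 wild-type and 15 knockout ends, a ratio of 1.63 (0.713 to 3.82). Which part of the gene was removed is not given, so these ends do not check the label.

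To place boundaries, an insulation score was computed for each 25 kb bin as the mean balanced contact in a 250 kb square that spans the bin, on a log2 scale over the mean of the held part. A minimum with a prominence of at least 0.2 on the summed map of both libraries, with the wild-type pairs thinned to the total of the knockout library, was called a boundary. There were 9 boundaries in the region among 141 in the held part. The wild-type library alone gave 9 in the region and the knockout library alone gave 9. Of the boundaries of the summed map, 8 lay within 1 bin of a wild-type call and 7 within 1 bin of a knockout call. The boundary at 78.75 Mb had no call within 1 bin in either library, and the one at 77.05 Mb had none in the knockout library. A call farther off than 1 bin was not counted as the same boundary.

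The 9 boundaries divided the members into 3 domains. *Wnt6* (chr1:74771892-74785322, plus strand), *Wnt10a* (chr1:74791516-74804179, plus strand) and *Ihh* (chr1:74945315-74951672, minus strand) lay together in a domain of 1025 kb from 74.6 to 75.625 Mb, which holds 38 protein-coding start sites. *Epha4* (chr1:77367185-77515088, minus strand) had the only protein-coding start site in a domain of 475 kb from 77.075 to 77.55 Mb. *Pax3* (chr1:78101267-78197134, minus strand) lay with *Sgpp2* in a domain of 525 kb from 77.95 to 78.475 Mb. No boundary was called between *Wnt6*, *Wnt10a* and *Ihh*.

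Between the *Ihh* domain and the *Epha4* domain lay a gene desert of 1400 kb from 75.65 to 77.05 Mb with 0 protein-coding start sites. It was the fifth in length of 140 domains in the held part. Between the *Epha4* and *Pax3* domains lay a second stretch without such a start site, of 350 kb from 77.575 to 77.925 Mb. The *Ihh* domain had 37.1 protein-coding starts per Mb against a median of 3.33 over the held domains, and a GC content of 48.2% against 41.0% in the desert and a median of 40.8%.

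**Figure D1:**
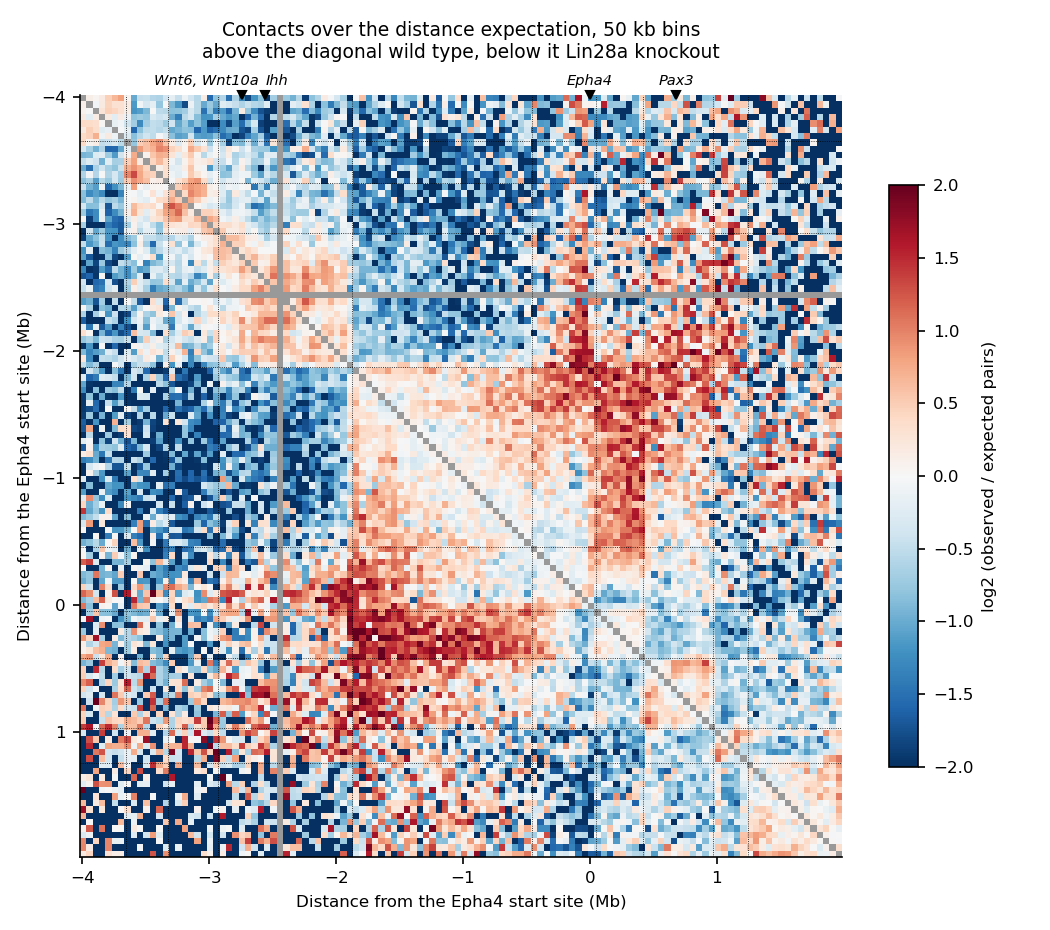
Contacts of the region in bins of 50 kb as log2 of observed over expected pairs, the wild-type library above the diagonal and the *Lin28a* knockout library below it. Both axes give distance from the *Epha4* start site in Mb, dotted lines are the 9 boundaries, triangles mark the genes, grey cells were left out, and cells without a pair have the darkest blue. On either side of the diagonal the red block to the right of and below the gene desert is its contact with the stretch between *Epha4* and *Pax3* (2.14 in wild-type and 2.38 in knockout cells), and the blue block is its contact with the *Ihh* domain (0.602 and 0.530).

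Sequence at the boundaries is shown for the places where the CTCF core motif, a degenerate word of 12 positions searched on both strands, occurred in the boundary bin or 1 bin to either side. Each line gives 30 bases of GRCm38 in the direction of the motif, with the motif in capitals.
Boundary at 73.85 Mb, chr1:73826488-73826517, minus strand, in the non-coding transcripts 6030407O03Rik and Gm29183: ctcatccgaCCACCAGAGGGCagtgtggta
Boundary at 74.175 Mb, chr1:74196152-74196181, minus strand, between genes: cctcagaagCCAGCAGAGGGCatcagattt
Boundary at 74.175 Mb, chr1:74205996-74206025, plus strand, between genes: agaactccaCCAGCAGAGGGCaacattgtc
Boundary at 75.625 Mb, chr1:75653731-75653760, plus strand, between genes: ttcctttggCCACCAGGTGGCgccatcaca
Boundary at 77.925 Mb, chr1:77943275-77943304, plus strand, in the non-coding transcript Gm28387: ttctcttggCCACTAGAGGGCgaactttcc

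Such a match lay at 4 of the 9 boundaries (44.4%). It lay in 22.6% of 3507 windows of the same length (75 kb) over the held part and at 42 of its 141 boundaries (29.8%). The windows at the other 5 boundaries, 74.575, 77.05, 77.55, 78.475 and 78.75 Mb, held no match to these letters. The matches at 75.625 and 77.925 Mb, the boundaries between the *Ihh* domain and the desert and between the stretch next to *Epha4* and the *Pax3* domain, point in the same direction. The *Epha4* domain and the stretch between *Epha4* and *Pax3* held 0 matches, but at the median rate of the held domains, 2.86 per Mb, few would lie in domains of that length. The desert held 4 (2.86 per Mb) and the *Ihh* domain 13 (12.7 per Mb). A match is a word in the reference and binding of CTCF was not measured.

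The contacts across each boundary were counted between the 500 kb on one side and the 500 kb on the other, and divided by the number expected from distance and from the balancing factor of each bin. Since boundaries were called where such contacts are few, a value under 1 describes how they were chosen. The boundary at 75.625 Mb, chr1:75625001-75650000, separates the *Ihh* domain from the desert. Its nearest start site upstream is that of *Slc4a3*, an anion exchanger, at 91234 bp, and its nearest downstream is that of *Epha4* itself, at 1877588 bp. It was crossed by 2151 wild-type and 1503 knockout pairs, 0.628 (0.602 to 0.656) and 0.549 (0.521 to 0.577) of the expected number. These were the lowest values of the 9 boundaries, and the 2 intervals did not overlap.

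Between *Epha4* and *Pax3* there were 2 boundaries that differed in crossing contacts. The one at 77.55 Mb, with its centre 47412 bp from the *Epha4* start site, was crossed at 0.975 of the expected number in wild-type cells (2935 pairs) and 0.933 in knockout cells (2289 pairs), close to the expected number. The one at 77.925 Mb was crossed at 0.697 (2163 pairs) and 0.687 (1766 pairs). The boundary at 77.05 Mb, between the desert and the *Epha4* domain, was crossed at 0.961 (2506 pairs) and 1.03 (2197 pairs). Both boundaries of the *Epha4* domain were thus crossed nearly as often as distance would give. The call at 77.55 Mb was lost with an insulation square of 500 kb, and the one at 77.05 Mb in some settings. The boundary bins at 75.625 and 77.925 Mb had scores of -0.54 and -0.70 in wild-type and -0.73 and -0.69 in knockout cells. The scores were -0.26 and -0.19 at 77.05 Mb and -0.45 and -0.48 at 77.55 Mb. In the next bin upstream of 75.625 Mb they were -0.59, the lowest there in wild-type cells, and -0.68 in knockout cells. Counted from the lowest of 141 scores, 77.55 Mb ranked 62 in wild-type and 48 in knockout cells, and 75.625 Mb ranked 37 and 18, so that the score at 77.55 Mb was below that of the median boundary although its crossing contacts were not.

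The other 5 boundaries lie outside the stretch from *Wnt6* to *Pax3*. The boundary at 73.85 Mb, between *Tnp1*, a sperm nuclear protein gene, and *Tns1*, a focal adhesion protein gene, was crossed at 0.694 in wild-type and 0.636 in knockout cells. The one at 74.175 Mb, between the chemokine receptor genes *Cxcr2* and *Cxcr1*, was crossed at 0.883 and 0.869. The one at 74.575 Mb, upstream of the *Ihh* domain and 746 bp from the start of *Zfp142*, with *Usp37* on the other side, was crossed at 0.803 and 0.849. Upstream of the *Ihh* domain, then, the first had the fewest crossing contacts in both libraries. The boundary at 78.475 Mb, downstream of the *Pax3* domain between *Sgpp2*, a sphingosine phosphatase gene, and *Farsb*, a tRNA synthetase subunit gene, was crossed at 0.712 and 0.717. The one at 78.75 Mb, between *Utp14b* and the potassium channel subunit gene *Kcne4*, was crossed at 0.786 and 0.728.

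**Figure D2:**
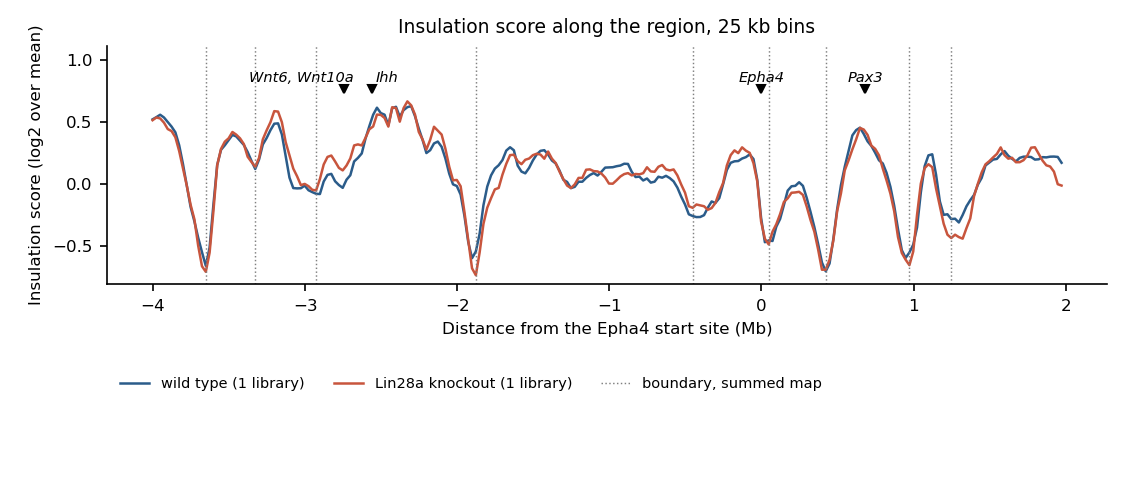
Insulation score (log2 over the mean of the held part) per 25 kb bin against distance from the *Epha4* start site in Mb, for 1 library per group, with dotted lines at the boundaries of the summed map and triangles at the genes. The boundary bin at 75.625 Mb, left of the desert, lies at -0.54 in wild-type and -0.73 in knockout cells. The wild-type curve is lowest in the next bin upstream, at -0.59. The boundary bin at 77.925 Mb, between *Epha4* and *Pax3*, lies at -0.70 and -0.69.

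The knockout over wild-type ratio of crossing contacts passed 1.2-fold in either direction at 0 of the 9 boundaries, as it did at 0 of 141 in the held part (0%). At 75.625 Mb it was 0.873 (0.817 to 0.933), the second lowest of 141, where the range was 0.841 to 1.10. At 5 of the 9 boundaries the interval left out 1, against 33 of 141. The ratio was 0.916 (0.862 to 0.974) at 73.85 Mb and 0.927 (0.862 to 0.996) at 78.75 Mb, and above 1 at 74.575 Mb (1.06, 1.00 to 1.12) and 77.05 Mb (1.07, 1.01 to 1.14). That count was 3 when the wild-type library was thinned to as many pairs as the knockout library, and 1 when 250 kb was taken on each side. The read names of each library fell into 2 groups by instrument, run, flow cell and lane. They are called sequencing runs here, although the labels do not name them and they may be lanes of 1 run. In the smaller run of each library alone the ratio at 75.625 Mb was 1.09 (0.818 to 1.44) from 244 pairs, so that run did not show the lower value, and its interval includes the value of the whole libraries. Over 7 other settings, one of them without the smaller run, it ran from 0.851 to 0.891.

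Inside domains, the *Ihh* domain had 15263 wild-type and 11911 knockout pairs, 1.29 (1.27 to 1.31) and 1.33 (1.30 to 1.35) of the expected number. The *Pax3* domain had 4587 and 3468 pairs, 1.21 (1.18 to 1.25) and 1.14 (1.10 to 1.18). The *Epha4* domain had 3131 and 2540 pairs, 1.04 (1.01 to 1.08) and 1.09 (1.05 to 1.13). The desert stood at 1.11 in both libraries and the stretch between *Epha4* and *Pax3* at 1.05 and 1.01. Like the *Epha4* domain, both were near the median of the held domains, 1.08. The ratio of the libraries passed 1.2-fold inside 0 of 140 domains of the held part (0%). It was 1.03 (1.01 to 1.06) in the *Ihh* domain, 1.04 (0.990 to 1.10) in the *Epha4* domain and 0.941 (0.8998 to 0.983) in the *Pax3* domain. Without balancing, the ratio of the *Ihh* domain was 0.994 (0.970 to 1.02).

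Contacts between domains were uneven. The desert and the stretch between *Epha4* and *Pax3* lie on either side of the *Epha4* domain, yet they were joined by 3693 wild-type and 3539 knockout pairs, 2.14 (2.08 to 2.21) and 2.38 (2.30 to 2.46) of the expected number. Among 723 pairs of domains in the held part, separated by at most 3 Mb, this value ranked 2 in wild-type and 1 in knockout cells, where the median pair stood at 0.917 and 0.920. The *Epha4* domain, the direct neighbour of both, had 1.18 and 1.23 with the desert (4851 and 4206 pairs) and 0.962 and 0.932 with the stretch (2287 and 1764 pairs). The *Pax3* domain had 1.41 and 1.57 with the desert (2131 and 2121 pairs). With the stretch, its direct neighbour, it had 0.683 and 0.693 (1753 and 1467 pairs). Neighbouring domains meet across a boundary that was called where contacts are few, and the desert and the stretch are not neighbours. The 723 pairs held both kinds, so these contrasts and ranks partly describe how boundaries were called. The boundaries at 77.05 and 77.55 Mb, which lie between the desert and the stretch, were crossed at 0.961 and 0.975 in wild-type cells. In knockout cells they were crossed at 1.03 and 0.933. The desert, the *Epha4* domain and the stretch may therefore be parts of 1 larger domain from 75.65 to 77.925 Mb, which was not tested.

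In steps of 200 kb, the stretch between *Epha4* and *Pax3* contacted the step that holds the *Epha4* start site, 77.4 to 77.6 Mb, at 0.781 (wild-type) and 0.759 (knockout) of the expected number. That step also takes in the boundary bin and the first bin of the stretch itself. The value was higher farther away, at 1.08 and 1.03 at 77.2 to 77.4 Mb, 1.75 and 1.64 at 77 to 77.2 Mb and 2.01 and 2.03 at 76.8 to 77 Mb. In raw pairs this stretch had 936 wild-type contacts with 77.2 to 77.4 Mb and 980 with the next step away, 77 to 77.2 Mb. The value stayed above 2 from there to 75.8 to 76 Mb, the last step that lies wholly in the desert, where it was highest at 2.41 (395 pairs) and 2.98 (424 pairs). At 75.6 to 75.8 Mb, a step that also takes in the boundary bin and the last bin of the *Ihh* domain, it was 2.25 (280 pairs) and 2.91 (319 pairs). It was 1.33 (171 pairs) and 1.44 (153 pairs) in the next step, 75.4 to 75.6 Mb, inside the *Ihh* domain.

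The *Epha4* and *Pax3* domains had their highest value at 75.6 to 75.8 Mb in both libraries. There the *Epha4* domain stood at 2.23 (478 pairs) and 2.27 (430 pairs), and the *Pax3* domain at 2.20 (290 pairs) and 2.63 (311 pairs). The *Epha4* domain stood at 0.890 and 0.966 at 76.8 to 77 Mb, nearly next to it. In the same step the *Pax3* domain had 1.17 and 1.16.

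**Figure D3:**
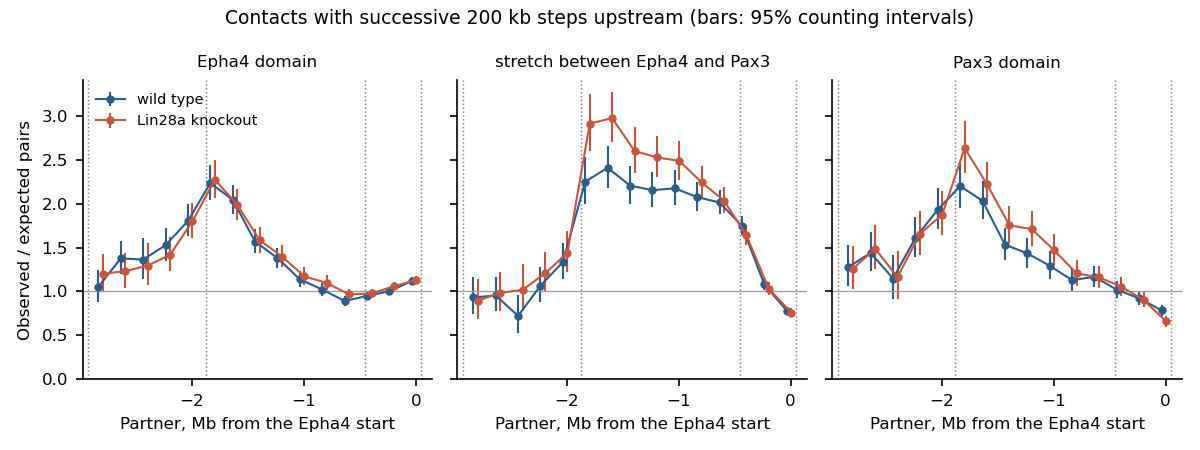
Observed over expected pairs of the *Epha4* domain, the stretch between *Epha4* and *Pax3*, and the *Pax3* domain with successive 200 kb steps, placed by the distance of their centre from the *Epha4* start site in Mb. Points are 1 library each, bars are 95% counting intervals and dotted lines are boundaries. The middle panel stays above 2 across most of the desert, with its highest points of 2.41 in wild-type and 2.98 in knockout cells at 75.8 to 76 Mb, while the left panel goes from 0.890 and 0.966 near the *Epha4* domain to 2.23 and 2.27 at 75.6 to 75.8 Mb.

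Contacts between the boundaries themselves were also compared, from pairs that partly enter the values above. Squares of 3 by 3 bins were compared over the 36 pairs of boundaries in the region. The 2 highest values in both libraries joined 75.625 Mb with the boundaries on the far side of *Epha4*. With 77.55 Mb there were 31 wild-type and 31 knockout pairs, 2.73 and 3.22 of the expected number, and with 77.925 Mb there were 25 and 28 pairs, 2.55 and 3.27. These counts are small, and their ratios between libraries had intervals of 0.695 to 2.01 and 0.721 to 2.29. The 2 edges of the *Epha4* domain itself, 77.05 and 77.55 Mb, ranked 3 in wild-type and 4 in knockout cells. They were joined by 126 and 88 pairs, 2.13 (1.77 to 2.53) and 1.88 (1.51 to 2.32) of the expected number.

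Between libraries, the ratio for the desert and the stretch was 1.11 (1.06 to 1.16), and for the desert and the *Pax3* domain 1.12 (1.05 to 1.19), higher in the knockout library. For the *Ihh* domain and the desert it was 0.882 (0.842 to 0.922), from 4498 wild-type pairs (0.602 of the expected number) and 3276 knockout pairs (0.530). For the *Epha4* and *Pax3* domains it was 0.902 (0.827 to 0.983), from 1206 and 934 pairs. The desert and the *Epha4* domain had 1.04 (0.999 to 1.09). Among 723 ratios of the held part, from the highest, the desert ranked 76 with the stretch and 72 with the *Pax3* domain. It ranked 646 with the *Ihh* domain, and the range was 0.657 to 1.48. Of 31 pairs of domains in the region 1 passed 1.2-fold (3.23%), against 50 of 723 in the held part (6.92%). That 1 joined the desert with the 375 kb domain upstream of the *Ihh* domain, with 491 wild-type and 325 knockout pairs, 0.436 and 0.335 of the expected number and a ratio of 0.769 (0.666 to 0.886). With 1 pair past this fold, the share of the region cannot be told from that of the held part.

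By step, the ratio of the stretch between *Epha4* and *Pax3* was 1.01 (0.915 to 1.12) at 76.8 to 77 Mb, 1.14 (1.01 to 1.30) at 76.4 to 76.6 Mb and 1.29 (1.10 to 1.52) at 75.6 to 75.8 Mb. For the *Epha4* domain it was 1.09, 1.03 and 1.02 in these steps, and all 3 of its intervals included 1. In the smaller sequencing runs alone the ratio of the desert and the stretch was 1.17 (0.959 to 1.43), and that of the *Ihh* domain and the desert was 1.09 (0.890 to 1.32), on the other side of 1 from the whole libraries. The higher contact of the desert with the stretch was present in those runs too, at 2.06 and 2.41 of the expected number.

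Relative to the number expected at their distance, though not in raw pairs, the *Ihh* domain had more contacts with the domains past the desert than with the desert itself. The desert is its direct neighbour, across a boundary called where contacts are few. The *Ihh* domain had 1.50 and 1.47 of the expected number with the *Epha4* domain (1186 and 981 pairs) and 1.56 and 1.57 with the *Pax3* domain (881 and 757 pairs). With the stretch in between it had 1.06 and 1.18 (535 and 500 pairs). None of these 3 ratios between libraries had an interval that left out 1. In bins of 250 kb the leading eigenvector of the contact map, in SD units and signed so that the gene-rich compartment A is positive, was 1.41 and 1.47 on average in the *Ihh* domain, 0.58 and 0.61 in the *Epha4* domain and 0.69 and 0.70 in the *Pax3* domain. It was -0.12 and -0.18 in the desert, a mean over bins of both signs. From low to high coordinates, the 5 bins of the desert stood at 0.55, 0.15, -0.56, -0.45 and -0.31 in wild-type cells. In knockout cells they stood at 0.40, -0.05, -0.58, -0.33 and -0.34. In the stretch the average was 0.33 and 0.23, from 2 bins. The first is the bin that holds the *Epha4* start site, which the average of the *Epha4* domain leaves out. The second stood at 0.19 and 0.06. The bin shared by *Wnt6*, *Wnt10a* and *Ihh* stood at 1.45 and 1.60, that of *Epha4* at 0.47 and 0.39 and that of *Pax3* at 0.59 and 0.60. The 5 members lie in 3 bins, all on the A side in both libraries, as were 18 and 17 of the 24 bins of the region and 157 and 158 of the 349 bins of the held part (44.99% and 45.27%). In 23 of the 24 bins the sign was the same in both libraries.

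Contacts per promoter were counted from the 25 kb bin that holds the start site to bins at most 1 Mb away. The *Wnt6* bin had 1182 wild-type and 941 knockout pairs, 1.18 (1.11 to 1.25) and 1.21 (1.13 to 1.29) of the expected number. The *Wnt10a* bin had 1036 and 855 pairs, 1.14 (1.08 to 1.22) and 1.21 (1.13 to 1.29), and the *Ihh* bin 1042 and 802 pairs, 1.19 (1.12 to 1.27) and 1.197 (1.12 to 1.28). The *Epha4* bin had 854 and 706 pairs, 1.04 (0.970 to 1.11) and 1.03 (0.957 to 1.11), and the *Pax3* bin 796 and 643 pairs, 1.03 (0.957 to 1.10) and 1.00 (0.925 to 1.08). The 3 ligand genes lay above the expected number in both libraries, while the intervals of *Epha4* and *Pax3* included it. The median bin of the region stood at 1.06 in each library, and 95% of the 3385 bins of the held part lay at or below 1.195 and 1.199. Counted from the lowest, the ligand genes ranked 3086 to 3209 in wild-type and 3211 to 3226 in knockout cells, so that they were near that limit and other bins were higher. The order among *Wnt6*, *Wnt10a* and *Ihh* was within their counting intervals.

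No promoter bin differed between libraries beyond counting error. The ratio was 1.03 (0.941 to 1.12) for *Wnt6*, 1.05 (0.962 to 1.16) for *Wnt10a*, 1.00 (0.914 to 1.10) for *Ihh*, 0.993 (0.898 to 1.10) for *Epha4* and 0.974 (0.876 to 1.08) for *Pax3*. These intervals leave room for differences of up to about their bounds, and 0 of the 5 ratios passed 1.2-fold, against 6 of 3385 bins in the held part (0.177%). Of other genes related to these pathways, 3 were looked at, and their intervals also included 1. The Frizzled receptor genes *Fzd5* and *Fzd7* had ratios of 1.02 (0.929 to 1.13) and 0.987 (0.892 to 1.09), and *Stk36*, a kinase gene related to Hedgehog signalling at 74.6 Mb, had 1.03 (0.935 to 1.14).

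The promoters differed in the side to which their contacts lay. Of the pairs of the *Epha4* bin, 575 of 854 (67.3%, exact interval 64.1 to 70.5) in wild-type and 489 of 706 (69.3%, 65.7 to 72.7) in knockout cells lay upstream, at lower coordinates, which is the side of its gene body and of the desert. The expected shares were 47.9% and 47.6%. Over 3385 bins of the held part 95% had at most 63.2% of their pairs on that side in either library. In bins of 50 kb the wild-type share was 62.6%. The boundary at 77.55 Mb, called from the same pairs where contacts are few, lies just downstream of this bin. The share thus partly describes that call. The *Pax3* bin also had more pairs upstream, 458 of 796 (57.5%) and 352 of 643 (54.7%), against 51.0% and 52.2% expected, and the knockout interval of 50.8 to 58.6% included the expected share.

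The *Ihh* bin had fewer pairs upstream than expected, 451 of 1042 (43.3%) and 368 of 802 (45.9%) against 55.7% and 55.2%, and so more on the side of the boundary at 75.625 Mb. The *Wnt10a* bin was similar, with 45.6% and 41.5% against 51.8% and 51.9%. The *Wnt6* bin, whose centre lies 25 kb from that of *Wnt10a*, was even, with 591 pairs on each side in wild-type cells and 50.7% upstream in knockout cells, against 51.5% expected in both. The *Wnt6* and *Wnt10a* bins fall into 1 bin when bins of 50 kb are used, with 46.1% upstream in knockout cells.

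**Figure D4:**
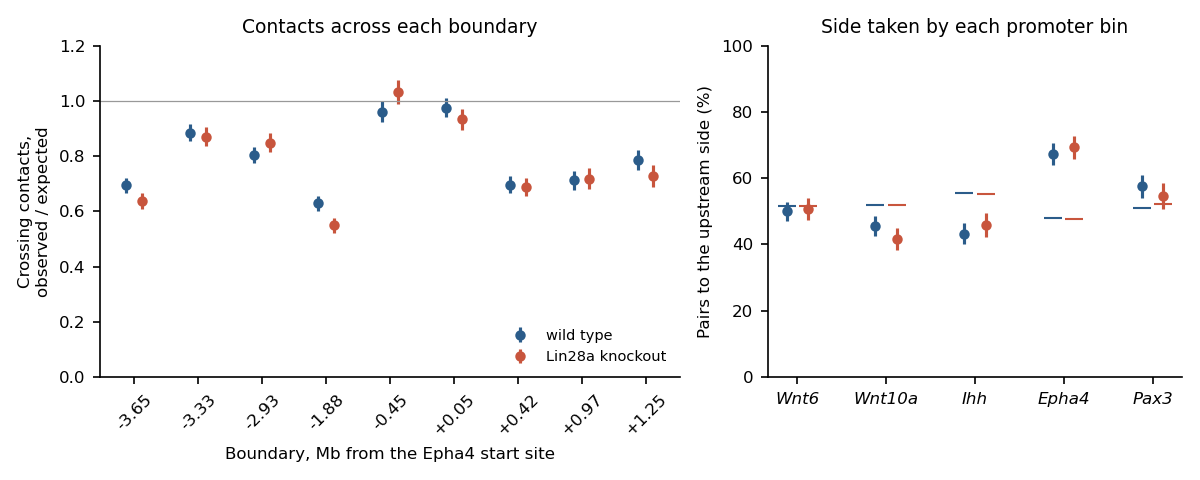
Left, contacts across each of the 9 boundaries as observed over expected pairs, named by distance from the *Epha4* start site in Mb. Right, the percentage of pairs within 1 Mb of each promoter bin that lie upstream, with short lines at the share expected from distance and balancing. Points are 1 library each and bars are 95% counting intervals. *Epha4* stands apart from its expected share with 67.3% and 69.3% upstream.

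Within 3 Mb, the share of pairs in the own domain was above the expected share for all 5 promoter bins in both libraries. Since domains were cut where contacts across are few, this describes how they were called, and it held for *Fzd5*, *Fzd7* and *Stk36* as well. The share was 62.7% and 62.2% for *Wnt6* (52.8% and 51.2% expected), 66.0% and 69.4% for *Wnt10a* (54.2% and 52.5% expected) and 76.6% and 73.01% for *Ihh* (58.8% and 56.6% expected). It was 38.9% and 39.2% for *Epha4* (30.9% and 29.6% expected) and 50.3% and 47.0% for *Pax3* (42.7% and 41.3% expected). The expected share follows from the length of the domain and the place of the gene in it, so the order of the genes is not an order of insulation.

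The *Epha4* bin met the desert with 264 wild-type and 243 knockout pairs, 1.55 (1.37 to 1.74) and 1.59 (1.40 to 1.81) of the expected number. Its own domain stood at 1.35 (1.23 to 1.48) and 1.404 (1.26 to 1.56), so that the order of desert and own domain was within counting error. On the other side it met the stretch next to it with 159 and 108 pairs, 0.705 (0.599 to 0.823) and 0.584 (0.479 to 0.705), and the *Pax3* domain with 69 and 48 pairs, 0.631 and 0.493. The lower values thus lay on the side of the boundary at 77.55 Mb, which was called from the same pairs where contacts are few. They are means over whole domains seen from 1 bin and do not place where contacts fall. The *Epha4* domain as a whole stood at 0.962 and 0.932 with the stretch. The *Ihh* domain, beyond the desert, was met with 70 and 70 pairs, 1.67 (1.30 to 2.11) and 1.89 (1.47 to 2.38).

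The *Pax3* bin had 518 and 404 pairs in its own domain, 1.24 and 1.18 of the expected number, and 97 and 84 pairs with the stretch between *Epha4* and *Pax3*, 0.771 and 0.799. It met the desert with 110 and 94 pairs, 1.40 (1.15 to 1.69) and 1.32 (1.07 to 1.62). The 3 ligand genes were low with the desert in both libraries. *Wnt6* had 63 and 47 pairs there (0.536 and 0.462 of the expected number), *Wnt10a* 66 and 37 (0.609 and 0.392) and *Ihh* 64 and 57 (0.487 and 0.510). With the *Epha4* domain farther on, 5 of the 6 values lay above 1, from small counts and with intervals that all included 1. There *Wnt6* had 20 and 18 pairs (1.13 and 1.19), *Wnt10a* 22 and 10 (1.37 and 0.721) and *Ihh* 21 and 16 (1.196 and 1.08). *Ihh* met the stretch between *Epha4* and *Pax3* with 14 and 16 pairs, 1.205 (0.659 to 2.02) and 1.63 (0.933 to 2.65). Of 35 ratios between libraries for a promoter bin and a domain, the interval left out 1 in 1, *Wnt10a* with the desert at 0.643 (0.418 to 0.976). Among 35 intervals of 95%, 1 of this kind is not a result about *Wnt10a*.

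**Figure D5:**
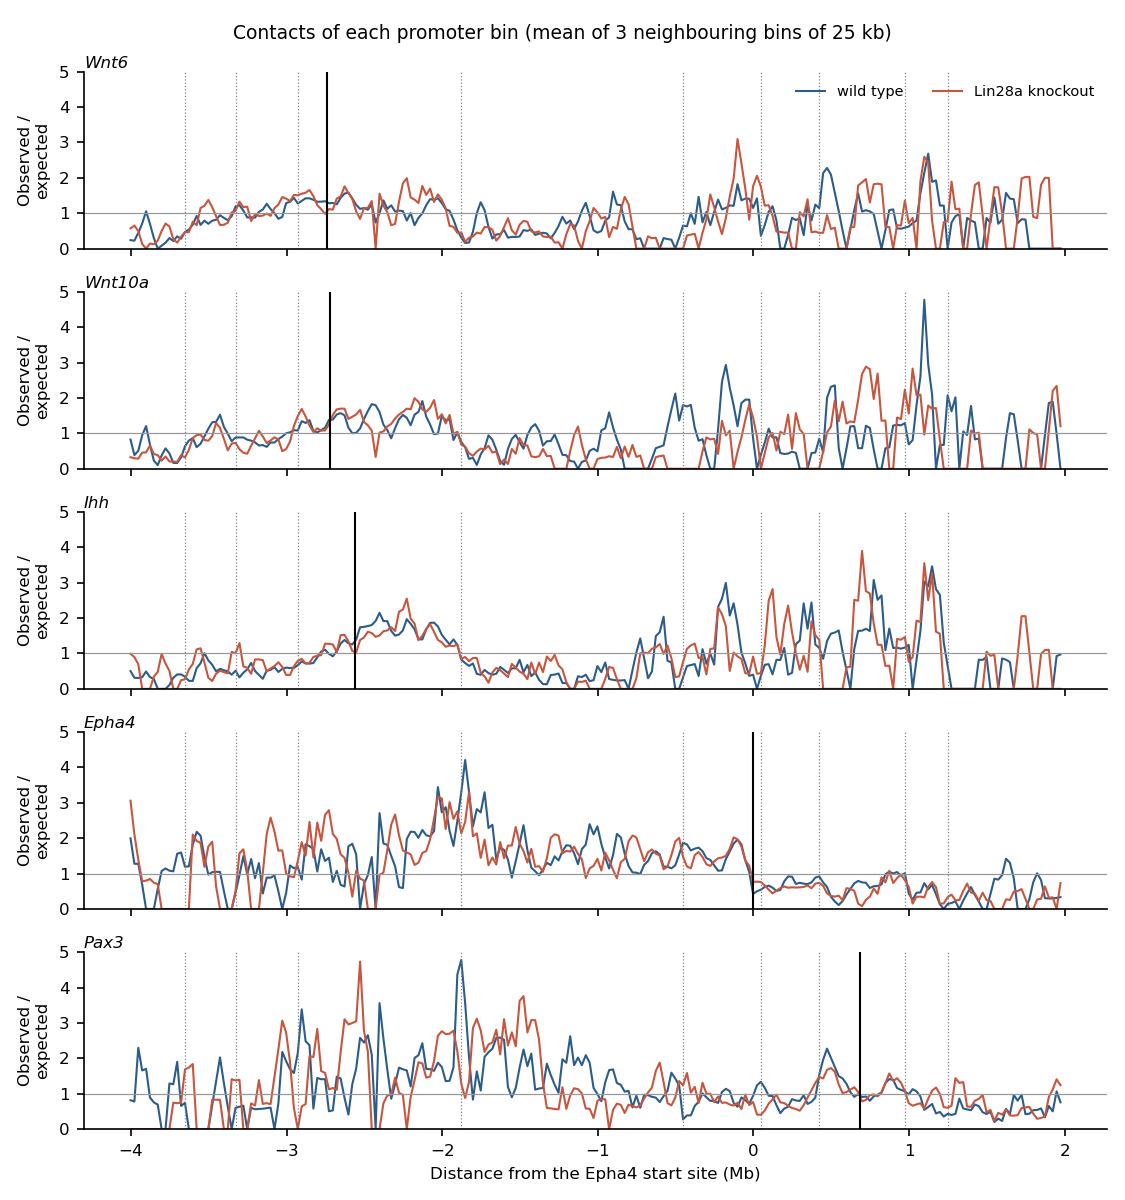
Observed over expected pairs of each promoter bin with the bins of the region, as the mean of 3 neighbouring bins of 25 kb, against distance from the *Epha4* start site in Mb. Black lines mark the promoter, dotted lines the boundaries, and each curve is 1 library. *Wnt6*, *Wnt10a* and *Ihh* lie below 1 over the desert as a whole (0.392 to 0.609), and *Epha4* lies above 1 across the desert and below 1 on its other side; values far from a promoter rest on few pairs.

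The bins of highest contact, at 100 kb to 3 Mb and with at least 20 pairs over both libraries, lay inside the own domain for 4 of the members. For *Wnt6* they held *Speg*, a muscle kinase gene, at 650 kb (12 and 13 pairs, 1.65 and 2.32 of the expected number), *Cfap65*, a cilia and flagella gene, at 150 kb, and *Ttll4*, a tubulin-modifying enzyme gene, at 100 kb. These lay on both sides of *Wnt6*. For *Wnt10a* they held *Stk11ip* and *Slc4a3* at 750 kb (14 and 10 pairs, 2.76 and 2.19), *Des*, the desmin gene, at 575 kb, and *Stk36* at 150 kb. For *Ihh* they held *Ptprn* and *Resp18*, both of secretory granules, at 300 kb (26 and 32 pairs, 2.16 and 3.52), *Dnpep*, a peptidase gene, at 350 kb, and *Speg* with *Gmppa* at 475 kb. For *Pax3* they held no protein-coding gene, and the first was at 175 kb upstream (36 and 28 pairs, 2.44 and 2.10). These bins were picked as the highest of 18 to 27 per gene and so are a description. The limit of 20 pairs favoured near bins, and far bins passed it mainly when they had more pairs than expected. The place in the own domain and the far partners thus follow in part from that limit.

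For *Epha4* the first was a bin of its own gene body, 100 kb upstream of the start (43 and 38 pairs, 2.02 and 2.21). The second was the boundary bin at 77.05 Mb, which belongs to no domain (19 and 11 pairs, 2.36 and 1.55), and the third lay at 350 kb (16 and 14 pairs, 1.87 and 2.04). Neither of these held a protein-coding gene.

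Contacts between the promoters of the members were too few to rank. For *Epha4* and *Pax3*, 682.0 kb apart, squares of 3 by 3 bins held 35 wild-type and 23 knockout pairs, 0.860 (0.599 to 1.196) and 0.657 (0.417 to 0.986) of the expected number. For *Ihh* and *Pax3* there were 9 and 14 pairs, 1.41 (0.645 to 2.68) and 2.65 (1.45 to 4.45). For *Ihh* and *Epha4* there were 10 and 12 pairs (1.16 and 1.67), for *Wnt6* and *Epha4* 6 and 13 (0.762 and 1.90) and for *Wnt10a* and *Epha4* 6 and 10 (0.810 and 1.55). *Wnt6* and *Wnt10a* met *Pax3* with 10 and 8 pairs and with 6 and 7 pairs. All 7 ratios between libraries had intervals that included 1, with upper bounds of up to 8.01, so that a difference was not detectable at this depth.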

How the data were processed

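Per the labels, formaldehyde-fixed nuclei were made into Hi-C libraries, enriched on streptavidin beads and sequenced as paired ends. The submitters' processing notes name CASAVA 1.8, Bowtie2, HiC-Pro and build mm10. Filters are not given in the sources used here. The deposited lists give 1 line per pair (position, strand, fragment and mapping quality score of each end), with no normalization by the authors. Fragment numbers matched GATC sites within 1 for 99.7% and 99.8% of 20000 ends per library. The lists held chromosome 1 to 90.75 Mb as first end in both libraries, and maps used 2448749 and 1973740 pairs with both ends there.

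Pairs were counted in 25 kb bins, balanced by iterative correction (44 of 3510 bins under 20% of the median left out), and divided by the mean at each distance times the balancing factors (Python 3.11.15, numpy 2.4.6, scipy 1.17.1). Intervals were exact Poisson, exact binomial for shares, and a binomial split for ratios. Code was tested on simulated maps. Genes came from GENCODE M21. Named genes were the members, the nearest start sites at boundaries, genes in the 3 highest partner bins, *Fzd5*, *Fzd7*, *Stk36*, *Nhej1* and *Lin28a*. Members, lists and tests were chosen with earlier results of these data known. Steps of 200 kb and boundary pairs were added after seeing the maps.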

Additional observations from a re-analysis of the deposited data

How the results depend on the processing

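No paired analysis was possible because each group holds 1 library, which also leaves out any test. With 50 kb bins, a 500 kb square, a prominence of 0.1, pairs of mapping quality 30 or more, no balancing, no smaller sequencing run or pairs 50 kb or more apart, the region had 7 to 13 boundaries, and 7 to 9 of those reported lay within 1 bin. The 500 kb square lost those at 74.175 and 77.55 Mb, and those at 77.05 and 78.75 Mb were also lost in some settings. The boundaries at 75.625 and 77.925 Mb were found in all 7. The count of crossing ratios whose interval left out 1 was 5 as reported, 1 with 250 kb sides, and 3 each with mapping quality 30, with wild-type pairs thinned and without the smaller run. Domain pairs of the region past 1.2-fold numbered 1 as reported and 2 each with 50 kb bins, without balancing and without the smaller run. In the smaller run alone, added after seeing the data, 2 crossing ratios and 9 domain pairs passed 1.2-fold, 1 crossing interval left out 1, and 1 member's promoter ratio passed 1.2-fold. Of 891 single values under planned settings, 812 stayed within the counting interval of the reported value and 79 moved past it, 52 of them without balancing. The contact of the desert with the stretch between *Epha4* and *Pax3* ran from 2.12 to 2.26 in wild-type and 2.37 to 2.54 in knockout cells, and the crossing ratio at 75.625 Mb from 0.851 to 0.891. The depth of the smaller runs, 27162 and 10654 pairs of the region, limits what they can show.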
